A study of Homo sapiens with 9 samples.

Results

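The peaks of the SWI/SNF chromatin remodeling subunits ARID1A, ARID1B and ARID2 were examined at 10 genes of the Wnt and beta-catenin pathway: CTNNB1, AXIN1, AXIN2, TCF7, TCF7L1, TCF7L2, LEF1, LGR5, NKD1 and RNF43. A peak belonged to one of these genes when the deposited list named that gene as the nearest. By this rule 20 of the 12852 ARID1A peaks, 24 of the 8728 ARID1B peaks and 26 of the 12995 ARID2 peaks were members, or 70 of 34575 in all. The genes are 10 of the 20136 protein-coding genes of the reference annotation. All libraries came from HepG2, an established human liver cancer line known to carry activated beta-catenin, grown without any treatment named in the labels. Formaldehyde-fixed chromatin was immunoprecipitated with an antibody to ARID1A, ARID1B, ARID2 or SNF5 and sequenced (ChIP-seq). Of 9 libraries, 1 was input and each of the 4 antibodies had 2 replicates. The groups differ in the antibody, so differences between subunits cannot be told apart from differences between antibodies or sequencing depths.

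SWI/SNF moves nucleosomes and exists in several forms. ARID1A and ARID1B are alternative subunits of the BAF form, ARID2 belongs to the PBAF form, and SNF5 (SMARCB1) is a core subunit of both. In the canonical Wnt pathway, a cytoplasmic destruction complex built on AXIN proteins marks beta-catenin for degradation. When a Wnt ligand binds its receptors, beta-catenin is spared, enters the nucleus and activates genes through the DNA-binding TCF/LEF factors. Several of the activated genes, AXIN2, NKD1 and RNF43 among them, restrain the pathway in turn. In liver the pathway is known for setting the metabolic program of hepatocytes around the central vein, and it is often activated in liver tumors.

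Each subunit had 1 peak list, which the authors called on both replicates merged. The values therefore have no replicate error, the depth behind them is unknown, and the intervals given are Wilson 95% intervals that cover counting error over peaks only. Peaks of the same gene are not replicates of each other. A list of liver markers was checked in the same way, and 8 of 9 genes were named by a peak of at least 1 ARID, 4 of them in all 3 lists. TTR was named by none. The lists hold no expression values, so neither RNA nor protein of any gene below was measured here.

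The bases that all 3 ARIDs held in common are shown first, because they are the only bases at which peaks assigned to these genes from all 3 lists coincided. The 70 peaks formed 48 separate regions when overlapping peaks were merged, of which 5 held a peak of each ARID. These lay at AXIN2, NKD1 and RNF43. They contain 6 stretches covered by all 3 peaks, and 4 stretches outside annotated untranslated sequence are printed on the chromosome's plus strand (GRCh37). Capitals mark the letters CTTTGAT or CTTTGAA, a common form of the sequence that TCF/LEF factors recognize, or their reverse complement. Of the 6 stretches only the one at chr17:63556809-63556913, in the first intron of AXIN2, held these letters, and it held both forms.
AXIN2 first intron: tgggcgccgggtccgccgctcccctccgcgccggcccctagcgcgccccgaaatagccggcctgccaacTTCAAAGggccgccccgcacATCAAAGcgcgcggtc
NKD1 upstream, chr16:50581531-50581582: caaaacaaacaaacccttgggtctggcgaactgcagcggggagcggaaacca
NKD1 upstream, chr16:50581965-50582013: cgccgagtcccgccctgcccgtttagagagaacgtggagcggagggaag
RNF43 intron 3, chr17:56446877-56446946: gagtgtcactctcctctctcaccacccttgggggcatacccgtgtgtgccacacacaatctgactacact

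The first question was which of the genes carried peaks of each ARID. ARID1A named 8 of the 10 genes, against 31.1% of all protein-coding genes. ARID1B named 8 of the 10, against 16.0%, and ARID2 named 7, against 27.7%. CTNNB1, AXIN2, TCF7L2, LGR5, NKD1 and RNF43 were named in all 3 lists, and 9.42% of protein-coding genes were. Every gene but LEF1 was named in at least 1 list, against 40.8% of protein-coding genes. With a promoter-class peak, which is a peak whose deposited distance to a transcription start site (TSS) is under 1000 bp, the counts were 6, 4 and 6 genes for ARID1A, ARID1B and ARID2. The same shares over protein-coding genes were 28.6%, 9.93% and 24.7%. The genes were chosen for their roles, but with earlier results of these data known. They were also few, so these counts are a description and no test was made.

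**Figure D1:**
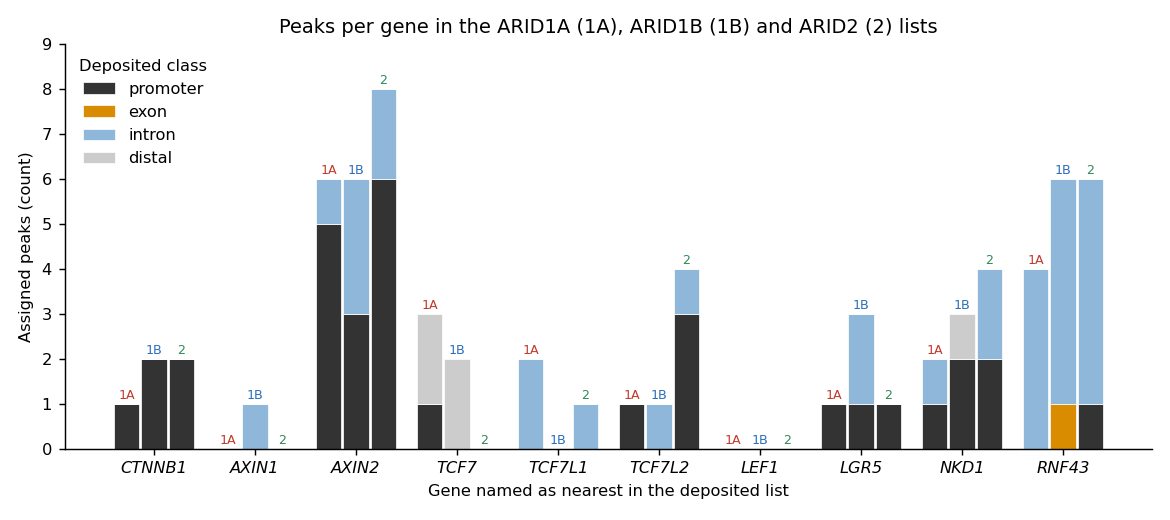
Number of peaks assigned to each of the 10 genes in the ARID1A (1A), ARID1B (1B) and ARID2 (2) lists, with bar segments for the deposited feature class. AXIN2 has 20 peaks, RNF43 has 16 and NKD1 has 9 over the 3 lists, while LEF1 has 0.

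The peaks were spread unevenly. AXIN2 held 20 of the 70, RNF43 held 16 and NKD1 held 9, so the 3 feedback genes took most of them. TCF7L2 had 6 peaks, CTNNB1, TCF7 and LGR5 had 5 each, TCF7L1 had 3 and AXIN1 had 1. The plot of peaks per gene also shows that the class of the peaks differed between genes. At CTNNB1 5 of 5 peaks were of the promoter class and at AXIN2 14 of 20, whereas at RNF43 1 of 16 was and 14 lay in introns.

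CTNNB1 encodes beta-catenin itself. It lies on the plus strand of chromosome 3 (41236232 to 41301587), and positions below are counted from the TSS of its canonical transcript, with negative values upstream. The ARID1A peak (chr3:41240782-41241230) covered the TSS and was 449 bp wide, and a 178 bp ARID1B peak lay within it. The ARID2 list had no peak there. Its 2 peaks flanked the site, with midpoints at -332 bp and at 1333 bp in intron 1. A further ARID1B peak had its midpoint at 1065 bp and was separated from the second ARID2 peak by 16 bp. CTNNB1 was thus named by all 3 ARIDs without a single base common to the 3 lists. One SNF5 peak of 1209 bp spanned the TSS and overlapped 3 of the 5 ARID peaks.

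AXIN1 and AXIN2 are scaffolds of the destruction complex, and AXIN2 is also a widely used target gene of the pathway. The 2 scaffolds differed in every list. AXIN1 (chromosome 16, minus strand) had 1 ARID1B peak of 146 bp in intron 2, 10099 bp into the gene, and no ARID1A or ARID2 peak. The nearest ARID1A peak lay 17939 bp from AXIN1 and was assigned to MRPL28, and the nearest ARID2 peak lay 28646 bp away.

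AXIN2 (chr17:63524681-63557766, minus strand) had 6 ARID1A, 6 ARID1B and 8 ARID2 peaks. They fell in 12 regions, and 11 of the 20 peaks overlapped a peak of another ARID. The first region shared by the 3 lists covered the promoter (chr17:63557654-63558479, 826 bp), and the second lay in intron 1 (chr17:63556384-63557310, 927 bp). The second held 5 peaks and contains the stretch with the TCF/LEF letters printed above. Further into the gene the lists took turns. Intron 1 held ARID1A peaks centered at 1839 and 2740 bp with an ARID2 peak at 2209 bp between them, and the next ARID1B peak was centered at 3288 bp in coding exon 2. The widest of the 70 peaks was an ARID2 peak of 1018 bp in intron 2, with no peak of another ARID on it. A single SNF5 peak of 7060 bp (chr17:63553393-63560452) ran beneath 15 of the 20 peaks. Its score was 29, at or above that of 90.7% of all SNF5 peaks, and it was the widest SNF5 peak at any of the genes.

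The TCF/LEF factors carry beta-catenin to DNA, and their 4 genes were the most varied group. TCF7L2 had peaks in all 3 lists, TCF7 in 2, TCF7L1 in 2 and LEF1 in none. TCF7L2 (chr10:114710006-114927437, plus strand) had an ARID1A peak of 365 bp over its TSS. ARID2 peaks were centered at -951, -505 and 707 bp, on both sides of the ARID1A peak, and none overlapped it. The only ARID1B peak was in intron 5 at 137364 bp, and an ARID2 peak lay 88 bp from it. None of the 6 peaks overlapped a peak of another ARID. Within the gene another 1 ARID1A, 3 ARID1B and 2 ARID2 peaks were assigned to the noncoding genes RP11-57H14.2 and RP11-139K1.2. Among these, the ARID1A peak overlapped 1 ARID1B and 1 ARID2 peak, so the lack of overlap holds only for peaks named TCF7L2. The SNF5 list held 7 peaks at TCF7L2, and 5 of them overlapped an ARID peak.

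TCF7 had 1 promoter-class peak, from ARID1A, which was 114 bp wide and centered 37 bp into the first exon. Its other 4 peaks were distal. ARID1A and ARID1B overlapped at -15922 and -15908 bp, and lay side by side without overlap at -43666 and -43345 bp. Both distal places held an SNF5 peak, and the promoter peak did not overlap one. The start of an annotated noncoding gene (ENSG00000271128) was nearer to the farther pair than that of TCF7, so this assignment rests on the annotation used. The nearest ARID2 peak lay 24327 bp from the gene and was assigned to SKP1.

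TCF7L1 had no promoter-class peak. ARID1A and ARID2 overlapped in intron 10, at 173918 and 173969 bp from the canonical TSS, and a second ARID1A peak lay in intron 11. The peak of any ARID closest to that TSS was 160184 bp away and assigned to KCMF1. The deposited distances of 3914 to 5506 bp for the TCF7L1 peaks thus refer to another start of the gene. LEF1 had no assigned peak and no peak in or near its body. The nearest ARID2 peak was 56980 bp away and assigned to HADH, the nearest SNF5 peak was 57562 bp away, the nearest ARID1A peak was 327299 bp away and the nearest ARID1B peak 1472018 bp away. With depth unknown, a missing peak says only that none was called.

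LGR5 is a receptor for R-spondins, secreted proteins that strengthen Wnt signaling. It (chr12:71833578-71980090, plus strand) had 1 ARID1A, 3 ARID1B and 1 ARID2 peak, and none overlapped another. Around the TSS the order from upstream was ARID1B at -1172 bp, ARID1A at -935 bp, ARID2 at -117 bp and ARID1B at 819 bp. The third ARID1B peak was in intron 4 at 96853 bp. A further 3 ARID2 peaks within LGR5 were assigned to the neighboring gene TSPAN8. The strongest SNF5 peak at LGR5 had a score of 28 and lay over the ARID1B peak in intron 1.

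**Figure D2:**
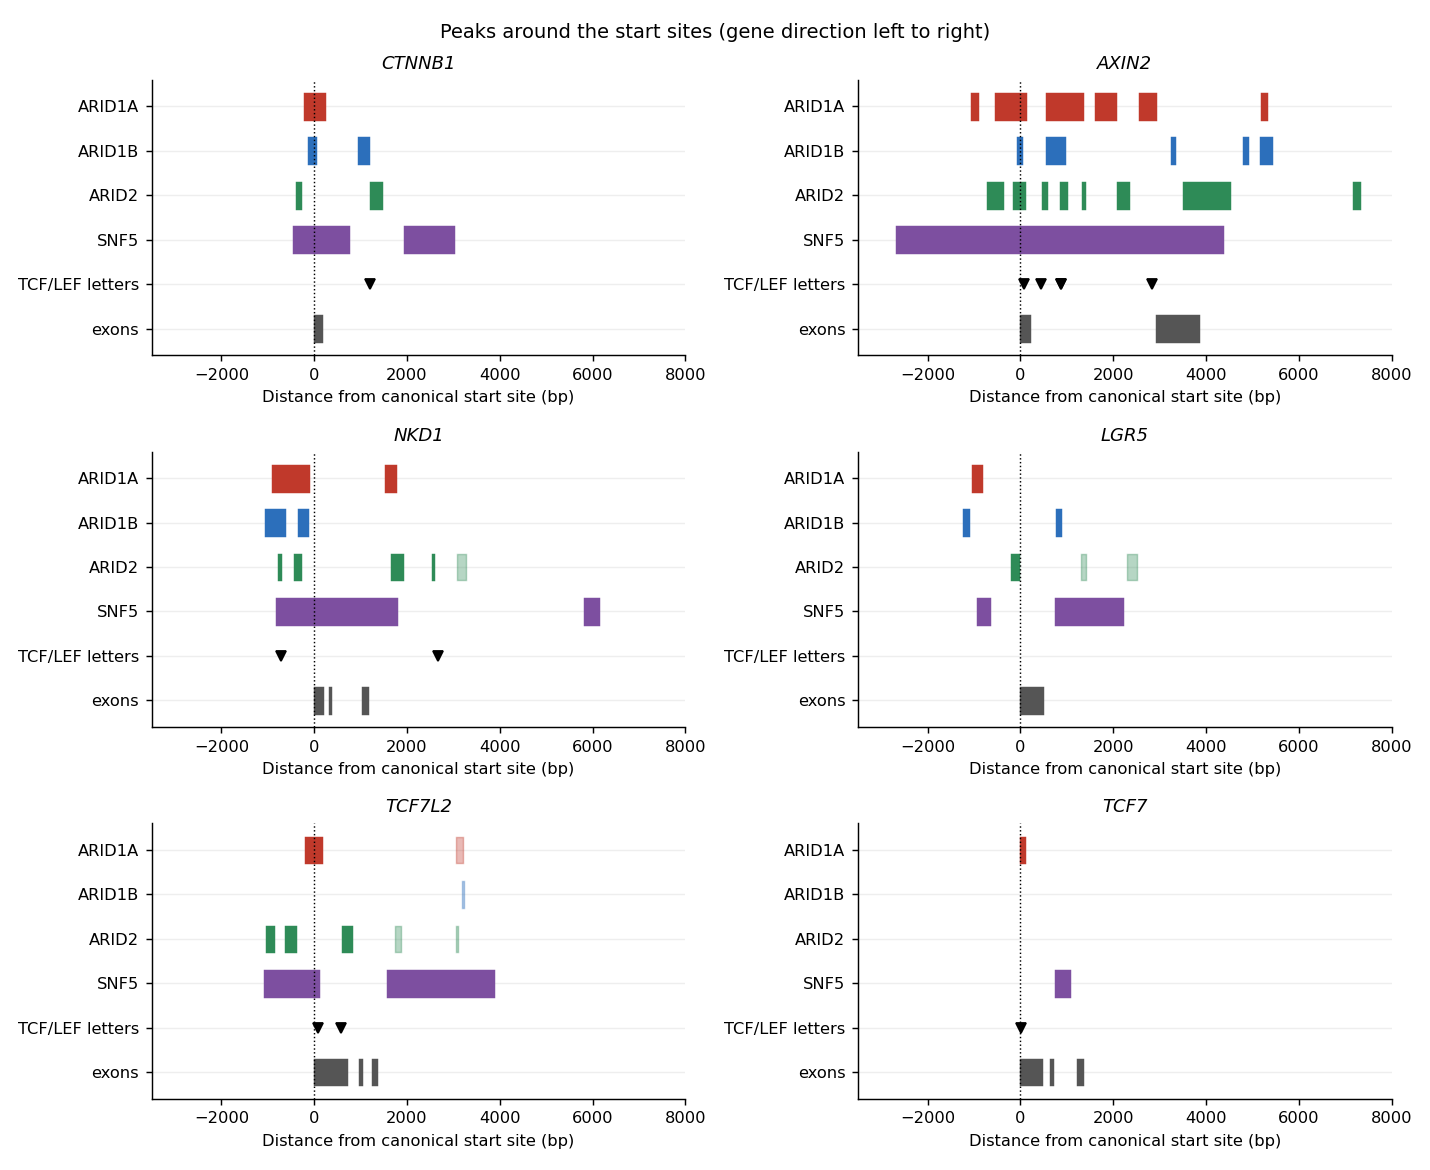
Peaks of the 4 subunits, TCF/LEF letters and exons from 3500 bp upstream to 8000 bp downstream of the canonical TSS of 6 genes, drawn to scale in the direction of transcription; pale boxes are ARID peaks that the lists assign to another gene. The 3 ARIDs coincide at AXIN2 and NKD1, while at LGR5 and TCF7L2 the peaks assigned to the gene sit side by side.

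NKD1 binds Dishevelled and dampens Wnt signaling. At NKD1 (chr16:50582307-50683160, plus strand) 7 of 9 peaks overlapped a peak of another ARID, the highest share among the genes with more than 5 peaks. Upstream of the TSS, 5 peaks joined into a region of 940 bp (chr16:50581252-50582191). It was built from an ARID1A peak of 791 bp with 2 ARID1B and 2 ARID2 peaks on it, and it contains both of the NKD1 stretches printed above. In intron 3 an ARID1A and an ARID2 peak overlapped at 1646 and 1778 bp. An SNF5 peak of 2608 bp with a score of 25 ran from the upstream region across the TSS to that pair. The only distal peak, from ARID1B at -17745 bp, also held SNF5.

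RNF43 is a membrane ubiquitin ligase that removes Wnt receptors from the cell surface. At RNF43 (chr17:56431037-56494956, minus strand) the 4 ARID1A, 6 ARID1B and 6 ARID2 peaks lay mostly deep in the gene. One ARID2 peak of 502 bp lay near the TSS, at 619 bp. The nearest ARID1A and ARID1B peaks were 3364 and 22404 bp from the TSS. The 2 regions held by all 3 ARIDs were in intron 2, centered at 25847 bp (765 bp wide), and in intron 3, centered at 47967 bp (242 bp wide). In the intron 2 region ARID1A overlapped both others, but no base was covered by all 3 at once. The SNF5 peaks there had scores of 32 and 28, at or above those of 94.5% and 89.0% of all SNF5 peaks. The peak of ARID1B at 22530 bp was deposited as exonic and lies in intron 2 of the canonical transcript.

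**Figure D3:**
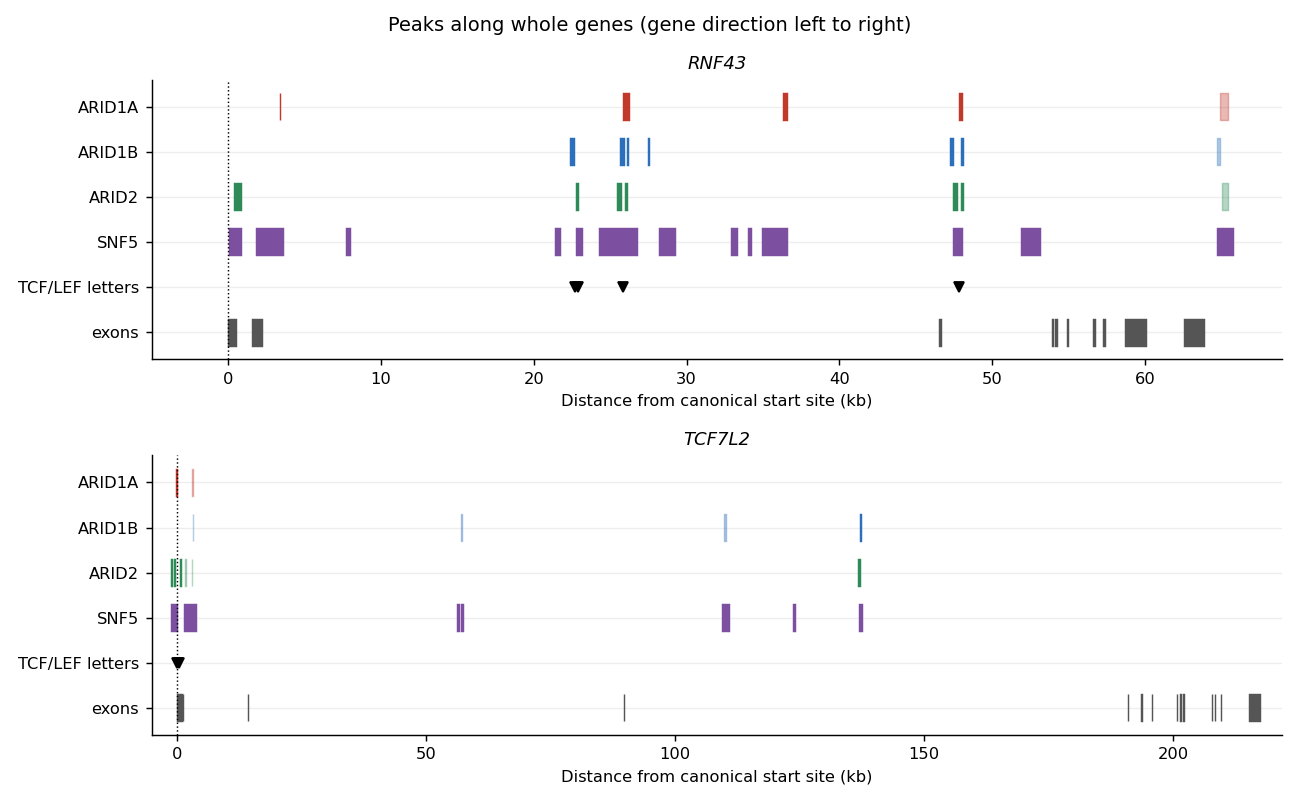
Peaks of the 4 subunits, TCF/LEF letters and exons along RNF43 and TCF7L2, by distance from the canonical TSS in kb, drawn to scale in the direction of transcription; pale boxes are ARID peaks that the lists assign to another gene. In RNF43 overlapping peaks of the 3 ARIDs form regions at about 26 and 48 kb, in introns 2 and 3, and in TCF7L2 the peaks lie at the start and in the long introns.

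The next comparison was between the ARIDs at these genes. Of the 48 regions, 5 held 3 ARIDs, 5 held 2 and 38 held 1. The single regions were 10 of ARID1A, 14 of ARID1B and 14 of ARID2. The peaks with no overlap were often close to another ARID all the same. Of the 38 single peaks, 27 lay within 1000 bp of a peak of another ARID, with a median gap of 194 bp. Neither this count nor the split of regions is given for the whole lists. They are therefore not read as particular to these genes. The share of member peaks that overlapped another ARID was 50% (10 of 20, interval 29.9 to 70.1%) for ARID1A, against 47.6% of the whole list. It was 41.7% (10 of 24, 24.5 to 61.2%) against 40.1% for ARID1B and 46.2% (12 of 26, 28.8 to 64.5%) against 46.9% for ARID2. By this rule the share at these genes was near that of the whole list for each ARID. With a gap of up to 1000 bp allowed, the shares for any other ARID were 80.0%, 79.2% and 92.3%, against 72.7%, 58.0% and 74.6% of the whole lists. With midpoints within 500 bp they were 75.0%, 70.8% and 73.1%, against 60.7%, 50.4% and 59.2%. When both peaks had to share 50% of their length, ARID1A and ARID2 members were below their lists (15.0% against 17.7% and 3.85% against 17.1%). ARID1B members were level with their list under that rule, at 12.5%.

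The position of the peaks relative to starts was compared with the whole lists as well. The promoter class took 50% of ARID1A member peaks (10 of 20, 29.9 to 70.1%) against 72.6%, 33.3% of ARID1B peaks (8 of 24, 18.0 to 53.3%) against 37.9%, and 57.7% of ARID2 peaks (15 of 26, 38.9 to 74.5%) against 67.0%. The interval of ARID1A excluded the share of its whole list, and the other 2 intervals included theirs. This is not a test, because peaks of the same gene are not independent and single genes weigh heavily. RNF43 gave 4 of the 20 ARID1A peaks and 0 of the promoter class, and AXIN2 gave 6 with 5 of that class. The intron class took 40.0% (21.9 to 61.3%) of ARID1A, 50% (31.4 to 68.6%) of ARID1B and 42.3% (25.5 to 61.1%) of ARID2 member peaks. The whole lists had 12.9%, 33.9% and 17.5%. RNF43 alone gave 14 of these intronic peaks. The members were of ordinary width, with medians of 224, 192 and 173 bp against 218, 164 and 189 bp.

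The core subunit SNF5 overlapped 56 of the 70 peaks. The share was 90.0% for ARID1A (18 of 20, 69.9 to 97.2%) against 71.3% of the list, 70.8% for ARID1B (17 of 24, 50.8 to 85.1%) against 62.9%, and 80.8% for ARID2 (21 of 26, 62.1 to 91.5%) against 67.2%. Each share was above that of its list by this rule, and each list's share was inside the interval of the members. The direction turned with the rule. With a gap of up to 1000 bp allowed, members of all 3 ARIDs were above their lists (100%, 100% and 96.2% against 86.3%, 76.0% and 86.2%). When midpoints had to lie within 500 bp, ARID1A and ARID2 members were below their lists (45.0% against 62.4% and 46.2% against 56.3%) and ARID1B members above (58.3% against 53.3%). When both peaks had to share 50% of their length, members of all 3 ARIDs were below (0%, 4.17% and 3.85% against 13%, 5.58% and 7.56%). A single wide SNF5 peak counts for all ARID peaks on it, and the AXIN2 peak alone counts for 15. Without AXIN2 the shares were 92.9%, 77.8% and 77.8%. All 5 regions with 3 ARIDs held SNF5, as did 26 of the 38 regions with 1. The AXIN2 regions with 3 ARIDs lay on the same SNF5 peak. This split is not given for the whole lists and is not read as particular to these genes. Taken from the SNF5 side, 32 SNF5 peaks lay in or within 5000 bp of the genes, and 21 of them (65.6%) overlapped an ARID peak of any assignment, against 50.9% of all SNF5 peaks. Their median score was 20.0 and that of all SNF5 peaks 19.0. Their median width of 915 bp was larger than the 535 bp of the whole list. The only gene with no SNF5 peak was LEF1.

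**Figure D4:**
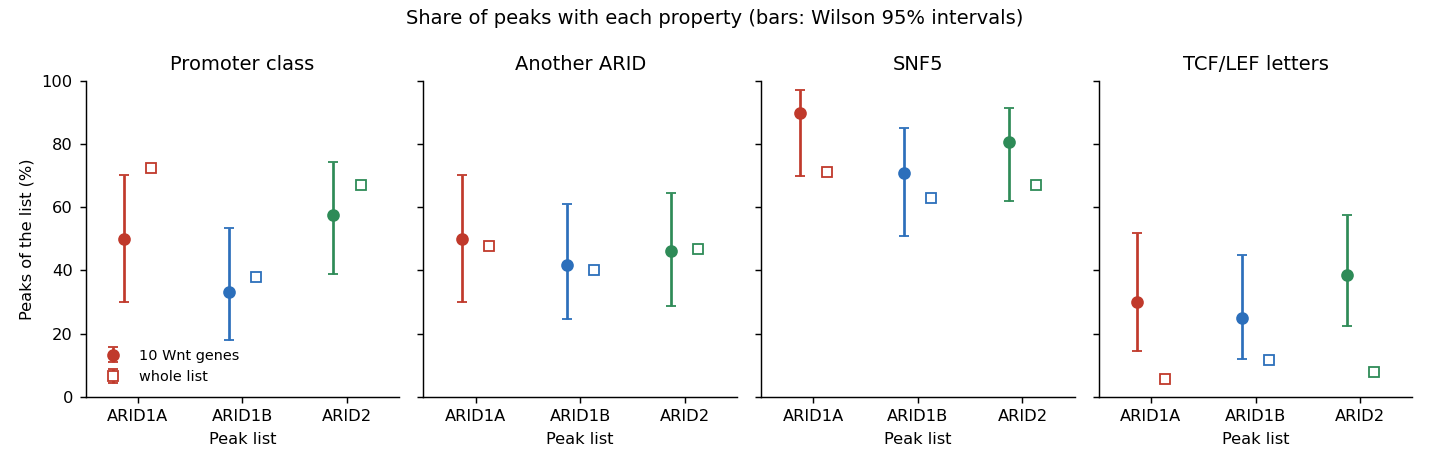
Percentage of peaks in the promoter class, overlapped by another ARID, overlapped by SNF5, and with TCF/LEF letters in the central 300 bp, for the peaks of the 10 genes (filled circles) and the whole list (open squares), with Wilson 95% intervals. The members lie near the whole list for overlap with another ARID (50% against 47.6% for ARID1A) and above it for TCF/LEF letters (38.5% against 7.81% for ARID2).

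The letters CTTTGAT or CTTTGAA, on either strand, were searched for in the 300 bp centered on each peak. A match describes the sequence and does not show that a factor was bound. They were found at 6 of 20 ARID1A peaks (30.0%, 14.5 to 51.9%) against 5.54% of the list. For ARID1B they were found at 6 of 24 (25.0%, 12 to 44.9%) against 11.8%, and for ARID2 at 10 of 26 (38.5%, 22.4 to 57.5%) against 7.81%. The 3 member intervals lay above the share of the whole list, that of ARID1B by a small margin. Since the members are in introns more often than the lists, the promoter-class peaks were also read alone, with matches at 4 of 10, 3 of 8 and 6 of 15 against 3.63%, 6.47% and 5.47%. AXIN2 gave 2, 2 and 3 of these matches. The peaks outside the promoter class were closer to their lists, at 20.0%, 18.8% and 36.4% against 10.6%, 15.0% and 12.6%. Without AXIN2, the shares were 28.6% (11.7 to 54.6%), 22.2% (9 to 45.2%) and 38.9% (20.3 to 61.4%), and the ARID1B interval included the share of its list. It did so too with the shorter letters CTTTGA, at 33.3% (18.0 to 53.3%) against 19.6%. Inside the peaks themselves, in place of the fixed window, the letters were found in 40.0% of ARID1A (21.9 to 61.3%), 16.7% of ARID1B (6.68 to 35.9%) and 15.4% of ARID2 peaks (6.15 to 33.5%), against 4.86%, 8.28% and 6.04%. The ARID1B interval again included the share of its list. Peaks of different lists at AXIN2, NKD1, RNF43 and TCF7L1 share windows, so the matches were also counted as places.

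There were 17 distinct matches, at 7 of the 10 genes: 5 at AXIN2, 4 at RNF43, 2 each at TCF7, TCF7L2 and NKD1, and 1 each at CTNNB1 and TCF7L1. Of these, 13 lay inside a peak of at least 1 ARID and 12 inside an SNF5 peak. Only the pair in AXIN2 intron 1, at 865 and 885 bp, lay inside peaks of all 3 ARIDs. AXIN1 and LGR5 had peaks without a match. The other matches that lie inside an ARID peak, outside annotated untranslated sequence, are shown with 17 bases on each side (GRCh37, plus strand) and with the lists whose peaks cover them.
CTNNB1 intron 1, chr3:41242189-41242229, ARID2: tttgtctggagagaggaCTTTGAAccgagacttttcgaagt
AXIN2 intron 1, chr17:63554913-63554953, ARID1A and SNF5: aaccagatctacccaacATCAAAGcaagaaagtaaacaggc
TCF7 upstream, chr5:133406978-133407018, ARID1B and SNF5: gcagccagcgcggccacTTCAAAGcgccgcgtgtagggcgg
TCF7L1 intron 10, chr2:85534413-85534453, ARID1A and SNF5: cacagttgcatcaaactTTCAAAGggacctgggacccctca
NKD1 upstream, chr16:50581572-50581612, ARID1A, ARID1B and SNF5: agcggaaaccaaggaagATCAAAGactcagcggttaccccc
RNF43 intron 3, chr17:56447011-56447051, ARID1A and SNF5: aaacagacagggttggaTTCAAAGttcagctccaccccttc
RNF43 intron 2, chr17:56469048-56469088, ARID1B and SNF5: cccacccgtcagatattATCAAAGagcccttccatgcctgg
RNF43 intron 2, chr17:56471989-56472029, ARID2 and SNF5: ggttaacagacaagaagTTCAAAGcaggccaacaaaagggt

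For comparison, 3 other sets of letters were searched for in the same windows on both strands: TGANTCA for AP-1, TGTTTAC for FOXA and CAAAGTCCA for HNF4, liver factors in the last 2 cases. AP-1 letters were found at 1 of 20, 4 of 24 and 2 of 26 member peaks (5%, 16.7% and 7.69%), against 6.49%, 9.70% and 6.87% of the lists. FOXA letters were found at 2, 2 and 1 member peaks, against 3.53%, 6.06% and 4.19% of the lists. HNF4 letters were found at 0, 0 and 1 member peaks, against 0.770%, 1.90% and 0.970% of the lists, and the 1 was the widest AXIN2 peak of ARID2. For these 3 sets every member interval included the share of the whole list.

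The wider pathway was described through 102 other genes in 11 roles. Of these, 49 (48.0%) were named by a peak of at least 1 ARID and 15 (14.7%) by all 3, against 40.8% and 9.42% of protein-coding genes. ARID1A named 36, ARID1B 23 and ARID2 38. Few genes for secreted signals were named. Of 19 Wnt ligand genes 1 was named, WNT9B, by an ARID2 peak 14454 bp from a TSS. Neither PORCN nor WLS, needed to secrete the ligands, was named, and of 6 R-spondin and R-spondin receptor genes only LGR4 was. Of 12 secreted inhibitors 3 were named. Among genes that act inside the receiving cell, 10 of 12 listed under the destruction complex were named (all but FBXW11 and GSK3A). That role also takes in tankyrase genes and several casein kinase genes, so it is wider than the complex itself. Named as well were 3 of 3 Dishevelled genes, 5 of 6 nuclear coactivators (all but PYGO1) and 6 of 8 nuclear repressors (all but CTBP2 and TLE4). Membrane or cytoplasmic inhibitors were named in 4 of 6 cases (all but KREMEN2 and SHISA2), target genes in 9 of 13 (all but ASCL2, CD44, CYP1A2 and EPHB2) and receptors in 7 of 15. These roles are small, and the difference between them was not tested.

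**Figure D5:**
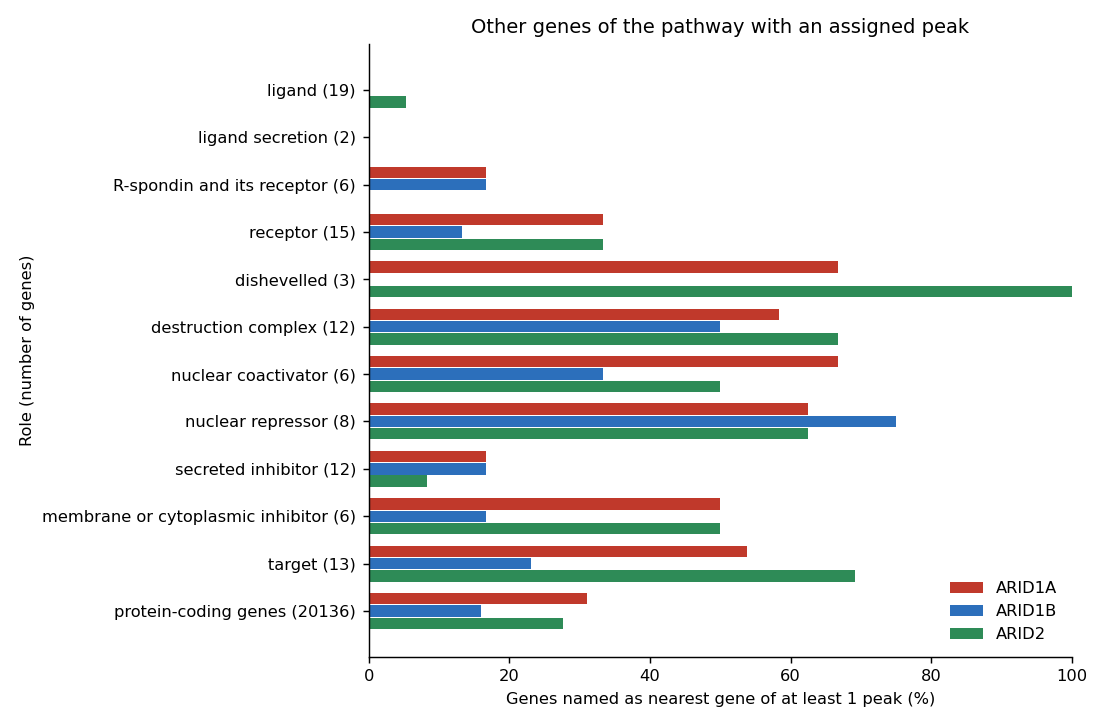
Percentage of genes of each role, with the number of genes in brackets, that were named by at least 1 peak in the ARID1A, ARID1B and ARID2 lists, with all protein-coding genes at the bottom. Ligand genes are at 0, 0 and 5.26%, genes listed under the destruction complex at 58.3, 50 and 66.7%, and protein-coding genes at 31.1, 16.0 and 27.7%.

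Among the pathway genes named in all 3 lists, ZNRF3, a ubiquitin ligase related to RNF43, had the most peaks, with 4 from ARID1A, 4 from ARID1B and 10 from ARID2. FZD5, a Wnt receptor, had 17 in all, of which 15 overlapped another ARID, and CSNK1D, a casein kinase, had 16. MYC, a target gene, had 14, and NOTUM, a secreted enzyme that inactivates Wnt ligands, had 13, of which 12 were of the promoter class. BCL9L, a coactivator of beta-catenin, and the coreceptor gene LRP5 had 11 each, and the 11 at LRP5 included no promoter-class peak. The growth factor gene BMP4 had 10. SP5, a target gene, had 9 peaks, 3 from each ARID, and each of the 9 overlapped another ARID and SNF5. The Groucho corepressor genes TLE3 and TLE1 had 8 and 6, and CHD8, whose protein binds beta-catenin, had 4.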

How the data were processed

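ChIP-seq peak lists of ARID1A, ARID1B, ARID2 and SNF5 in HepG2 were analysed. Reads were mapped by the authors with Bowtie2 (hg19). They removed duplicates, merged the replicates of each antibody, called broad peaks with MACS2, joined neighboring peaks, removed blacklisted regions and assigned genes from Gencode. The deposited ARID lists hold positions, distances to a TSS in bp and text labels (other), and the deposited SNF5 list adds the peak caller's score, a whole number. The deposited chromatin state was not used. The input library was not used here. No read counts were given, so the depth is unknown. Starts, counted from 0 in the files, were moved to count from 1, and 0 peaks ran past a chromosome end on GRCh37, the same assembly as hg19.

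Overlap meant at least 1 bp shared. Canonical transcripts, introns and protein-coding genes were taken from Gencode 44 lifted to GRCh37. Deposited names older than that release can be missed in shares over protein-coding genes. The deposited gene was also the nearest in Gencode 44 for 19 of 20, 23 of 24 and 26 of 26 member peaks, and for 70.7%, 60.9% and 70.4% of all ARID1A, ARID1B and ARID2 peaks, so shares over protein-coding genes depend on the annotation. Scripts used Python 3.11.15, pandas 2.3.3 and scipy 1.17.1 and were tested on simulated peaks. All comparisons are descriptions without a test. The named genes were the 10 members, up to 12 other pathway genes named in all 3 lists by number of peaks, and the genes of a role without a peak where they were 5 or fewer. WNT9B and LGR4 fell outside that rule and were named after their values were seen. The genes and lists were chosen with earlier results of these data known. Alternatives changed the assignment of peaks, the overlap rule, the TSS distance, the motif letters and window, and the gene with most peaks. One liver marker of the list is not reported here.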

Additional observations from a re-analysis of the deposited data

How the results depend on the processing

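Of 64 alternatives to 17 counts and shares, 43 stayed within the counting interval of a share or within 1.5 times a count, and 21 moved further. Overlap depended on the rule. When both peaks had to share 50% of their length, when a gap of up to 1000 bp was allowed, and when midpoints had to lie within 500 bp, the share of member peaks overlapping another ARID was 15.0%, 80.0% and 75.0% for ARID1A, 12.5%, 79.2% and 70.8% for ARID1B, and 3.85%, 92.3% and 73.1% for ARID2. Over whole lists these rules gave 17.7%, 72.7% and 60.7% for ARID1A, 12.5%, 58.0% and 50.4% for ARID1B, and 17.1%, 74.6% and 59.2% for ARID2. The share overlapping SNF5 was 0%, 100% and 45.0% for ARID1A under the same rules, 4.17% and 100% for ARID1B under the first and second, and 3.85%, 96.2% and 46.2% for ARID2. Over whole lists it was 13%, 86.3% and 62.4% for ARID1A, 5.58%, 76.0% and 53.3% for ARID1B, and 7.56%, 86.2% and 56.3% for ARID2. Members thus lay below the list under the first rule for all 3 ARIDs and under the third for ARID1A and ARID2. Under the second rule they lay above it for all 3. SNF5 peaks are wider, so a reciprocal overlap of that size with an ARID peak is limited by width. Joining peaks at most 1000 bp apart left 15 of 26 ARID2 member peaks. The ARID2 promoter share was 38.5% at a TSS distance of at most 500 bp and 76.9% at most 5000 bp, against 53.4% and 84.5% of the whole list. Searched inside the whole peak, the TCF/LEF letters were found in 15.4% of ARID2 member peaks, against 38.5% with the 300 bp window. The median width of these peaks was 173 bp, so a match in the window can lie outside the peak. The TCF/LEF shares without AXIN2 were added after seeing the data.

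No paired analysis was possible because the replicates were merged before peaks were called, which leaves 1 list for each subunit. For the same reason no replicate was left out.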

Other observations

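The deposited lists also give each ARID peak a chromatin state. Peaks of ARID1A and ARID1B that overlapped carried the same state in 42.9% of 2880 pairs, where the product of the 2 lists' state shares gives 30.9%. For ARID1A and ARID2 the values were 51.4% of 5618 pairs and 43.8%, and for ARID1B and ARID2 38.3% of 2458 pairs and 31.3%. At the Wnt pathway genes 10 of 28 overlapping pairs carried the same state. The peaks of a pair could share as little as 1 bp. Since many overlapping peaks carried different states, states are not given for any gene.

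Several ARID peaks inside or beside the pathway genes carried the name of another gene. At RNF43 each ARID had 1 peak past the end of the gene, assigned to SUPT4H1, and each overlapped another ARID and the SNF5 peak with the highest score at the 10 genes, 36. At TCF7L2 an ARID1A, an ARID1B and an ARID2 peak in intron 3 were assigned to RP11-57H14.2. They were centered at 3132, 3213 and 3081 bp from the canonical TSS. The ARID1A peak overlapped each of the others, and all 3 lay on the same SNF5 peak. At NKD1 1 ARID2 peak in intron 3, at 3165 bp, was assigned to RP11-401P9.1.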
